A study of Mus musculus with 18 samples.

Results

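The genes described here are 9 transcription factor genes of the GATA and AP-2 families, out of 46603 genes in each expression table. They are Gata2, Gata3, Gata4, Gata5 and Gata6, and Tfap2a, Tfap2b, Tfap2c and Tfap2e. The set was drawn up because Gata4 and Tfap2b were higher in tumoroids than in organoids, so the tumoroid and organoid values of these genes are a description and carry no test. The files hold 1 more gene of each family, Gata1 and Tfap2d, which are not in the set. The levels of the 9 genes were compared by cell lineage, by virus, by transplantation and in the single tumoroid of an autochthonous tumor.

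RNA was sequenced from 18 cultures of cells from mice that carry a human EGFR T790M/L858R transgene at the Col1a1 locus, driven by the CAG promoter and silent behind a lox-stop-lox cassette. For the 10 organoid libraries, tracheal cells were sorted by NGFR into club (negative) and basal (positive) cells, and distal lung cells were sorted by Sca1 into AT2 cells (negative) and BASCs (positive). Each of these 4 sorted populations was split and given Ad-GFP, which leaves the cassette in place, or Ad-Cre, which removes it, and 2 more Ad-Cre libraries hold the alveolar type and the bronchiolar type of BASC organoid. Most of the 8 tumoroid libraries came from Ad-Cre cells transplanted through the trachea and grown as tumors in Nude (Foxn1 Nu/Nu) mice, which lack mature T cells. These are 3 of AT2 origin, 3 of mixed BASC origin and 1 of bronchiolar BASC origin. The remaining library came from 1 autochthonous tumor, induced in the lung by intranasal adeno-Cre virus and not transplanted. All cultures were grown in Matrigel with neonatal lung mesenchymal support cells, and tumors were dissociated and cultured again before RNA was taken. No organoid condition was repeated. The AT2 tumoroids carry an NGFR-negative sorting label beside their AT2 origin, and their origin was used here. The titles of 5 tumoroids share a leading number with another (2 shared numbers), and the labels do not say whether these came from the same mouse. The human transgene was not analysed here.

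GATA factors are zinc finger proteins named for the core letters of the DNA site they bind. Gata6 is known for its part in forming and maintaining the distal lung epithelium and in the expression of surfactant genes, Gata4 for heart and gut endoderm, Gata2 for blood and endothelial cells, Gata3 for T cells and the mammary epithelium, and Gata5 for heart and gut. AP-2 factors bind GC-rich palindromes as dimers and are known for epidermis, neural crest, kidney, trophoblast and germ cell development. Tfap2a and Tfap2c act in surface and mammary epithelia, Tfap2c also in trophoblast and germ cells, Tfap2b in kidney tubules and neural crest, and Tfap2e in the olfactory bulb.

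Positions are those of GRCm38. Gata4 is at chr14:63198922-63271692 (minus strand), Gata2 at chr6:88193891-88207032 (plus), Gata3 at chr2:9857078-9890034 (minus) and Gata5 at chr2:180325133-180334699 (minus). Tfap2b is at chr1:19208914-19238576 (plus), Tfap2a at chr13:40715302-40738376 (minus), Tfap2c at chr2:172549593-172558622 (plus) and Tfap2e at chr4:126716006-126736240 (minus). The 250 bases before a RefSeq start site (GRCm38.p6) follow for 4 members: Tfap2a and Tfap2b, which trade places as the leading AP-2 gene, and Gata2 and Gata3, paralogs of which the first differed between organoid lineages and the second did not pass the test. Each line runs 5′ to 3′ on the strand of the gene, and capitals mark GCCNNNGGC, the AP-2 palindrome.
Tfap2a, chr13:40734921-40735170 (minus strand): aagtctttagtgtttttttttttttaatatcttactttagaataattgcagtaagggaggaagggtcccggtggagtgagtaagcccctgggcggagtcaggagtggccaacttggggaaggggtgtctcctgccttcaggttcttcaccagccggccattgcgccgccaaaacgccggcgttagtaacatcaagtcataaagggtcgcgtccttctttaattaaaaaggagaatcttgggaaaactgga
Tfap2b, chr1:19211804-19212053 (plus strand): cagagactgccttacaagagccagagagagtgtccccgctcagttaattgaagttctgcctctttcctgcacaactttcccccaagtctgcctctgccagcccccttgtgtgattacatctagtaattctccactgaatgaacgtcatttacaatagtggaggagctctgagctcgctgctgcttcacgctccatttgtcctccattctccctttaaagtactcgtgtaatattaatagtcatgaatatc
Gata2, chr6:88193641-88193890 (plus strand): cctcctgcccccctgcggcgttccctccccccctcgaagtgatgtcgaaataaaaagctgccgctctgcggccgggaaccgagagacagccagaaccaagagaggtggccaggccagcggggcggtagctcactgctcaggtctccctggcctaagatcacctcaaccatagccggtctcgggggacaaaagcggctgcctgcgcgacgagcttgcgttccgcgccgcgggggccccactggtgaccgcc
Gata3, chr2:9878601-9878850 (minus strand): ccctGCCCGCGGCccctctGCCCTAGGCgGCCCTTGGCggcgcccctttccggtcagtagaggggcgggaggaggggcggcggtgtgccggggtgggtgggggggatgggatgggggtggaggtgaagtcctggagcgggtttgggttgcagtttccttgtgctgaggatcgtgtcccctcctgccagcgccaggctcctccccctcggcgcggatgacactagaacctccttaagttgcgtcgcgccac
By GENCODE, the Tfap2a and Tfap2b windows lie in introns of longer transcripts of the same gene, and the Tfap2a window overlaps an exon of the antisense gene Gm26688 over 242 bases. The Gata3 window lies in an intron of longer Gata3 transcripts and in an exon of Gm13256 on the other strand. The Gata2 window lies outside annotated transcripts. GCCNNNGGC, which reads the same on both strands, was found at 3 places in the Gata3 window and at none in the other 3. Another RefSeq start of Gata2, whose window lies within a Gata2 exon and is not printed, has 1 such site, and another start of Tfap2a has none. It occurs in 13.7% of the 32851 windows of this length. The letters AGATAA, one form of the site that GATA factors bind, were searched on both strands and found in none of the 4, against 9.99% of all windows.

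The labelled lineages were checked against marker lists, as summed TPM (transcript levels scaled for gene length and library total, which can be compared between genes). The alveolar organoids (AT2 Ad-GFP, AT2 Ad-Cre and alveolar BASC Ad-Cre) held 87040 to 98178 TPM of 10 AT2 markers, the tracheal organoids 912 to 1506 and the airway BASC organoids (mixed BASC Ad-GFP and Ad-Cre, bronchiolar BASC Ad-Cre) 1999 to 5032. The sum of 6 club markers ran the other way, at 395 to 2442 TPM in alveolar, 20890 to 24980 in tracheal and 17074 to 27637 in airway BASC organoids. The club marker Scgb1a1 went against that sum. In CPM (counts scaled to library totals) it averaged 171.5 ± 146.1 (SD, n = 3) in alveolar and 2.79 ± 1.17 (n = 4) in tracheal organoids, while the other 5 were lower in alveolar organoids. The mixed BASC organoids were grouped with the bronchiolar ones as airway BASC organoids, although the paper describes mixed BASC cultures as containing organoids of both the alveolar and the bronchiolar type. The library of NGFR-positive basal cells did not hold more of the 7 basal markers (3067 and 3473 TPM) than the club library (3761 and 4115 TPM). Among tumoroids, 6 of AT2 or mixed BASC origin held 33772 to 148841 TPM of AT2 markers, the bronchiolar BASC tumoroid 9179 and the autochthonous tumoroid 148544. Total expected counts per library were 27772660 to 97191624 in organoids and 15327265 to 23355938 in tumoroids, so 1 count in a tumoroid is a larger share of its library.

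Gata6 was the leading GATA gene in all 10 organoid libraries, with 53.2 to 79.2% of the summed TPM of the 5 GATA members. The whole family was at 4.81 to 6.02 TPM in tracheal, 8.04 to 17.4 TPM in airway BASC and 49.6 to 61.0 TPM in alveolar organoids. The AP-2 family ran in the opposite order, at 31.0 to 35.6 TPM in tracheal, 14.8 to 27.2 TPM in airway BASC and 1.39 to 4.15 TPM in alveolar organoids. Tfap2a made up 86.6 to 96.4% of AP-2 TPM in the 7 tracheal and airway BASC libraries. In the 6 AT2 and mixed BASC tumoroids Tfap2b held 70.0 to 98.5% of it, a share that was at most 25.5% in any organoid. Gata5 had 1 count in the bronchiolar BASC organoids and 0 counts in the other 17 libraries, where 0 counts allow up to 3 counts of the library total. Tfap2e stayed at or under 0.62 TPM in every library.

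**Figure D1:**
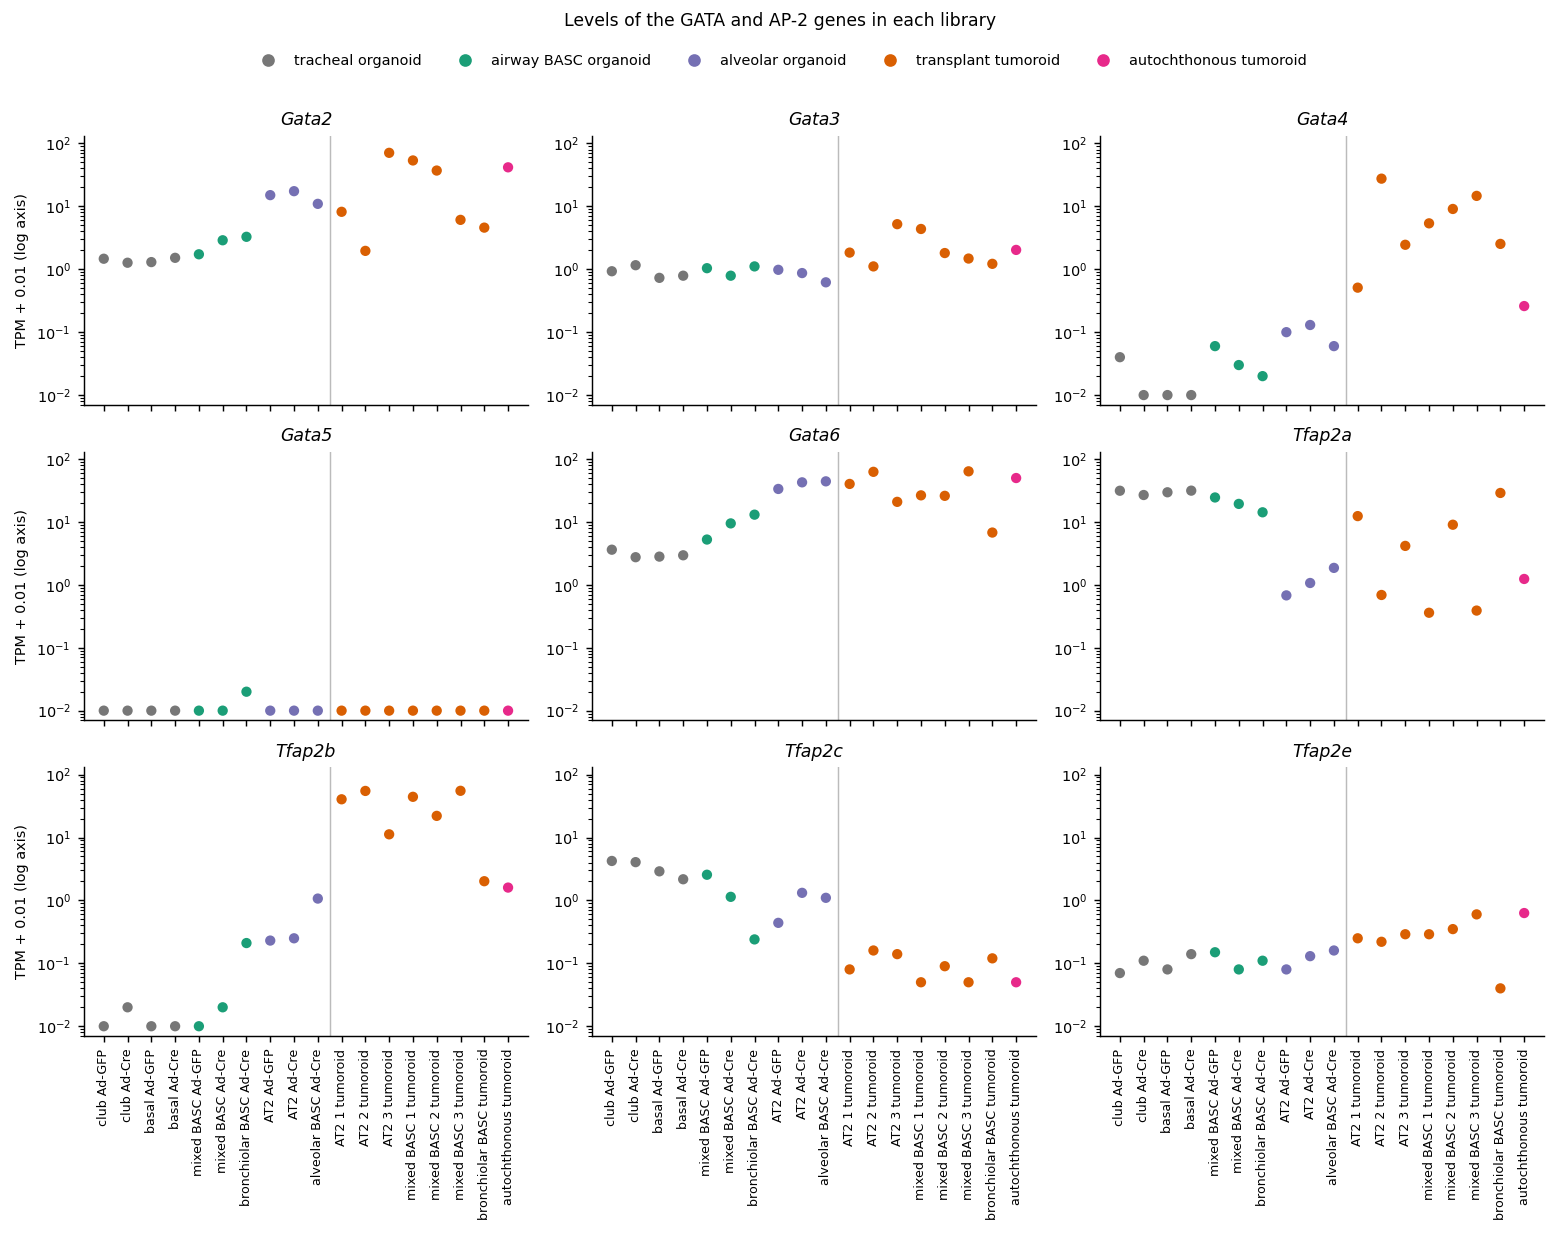
TPM plus 0.01 on a log axis for each of the 9 genes, with 1 point per library (10 organoid libraries left of the grey line, 8 tumoroid libraries right of it). Gata2, Gata6 and Tfap2b step up and Tfap2a steps down from tracheal to alveolar organoids. The points of Gata4 and Tfap2b, the genes that prompted the choice, lie higher in every tumoroid than in any organoid library. The margin is small for Tfap2b in the bronchiolar BASC (2.01 TPM) and autochthonous (1.59 TPM) tumoroids and for Gata4 in the autochthonous tumoroid (0.25 TPM). That Gata4 value rests on 11 counts, and its counting interval overlaps that of the AT2 Ad-Cre organoids.

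**Figure D2:**
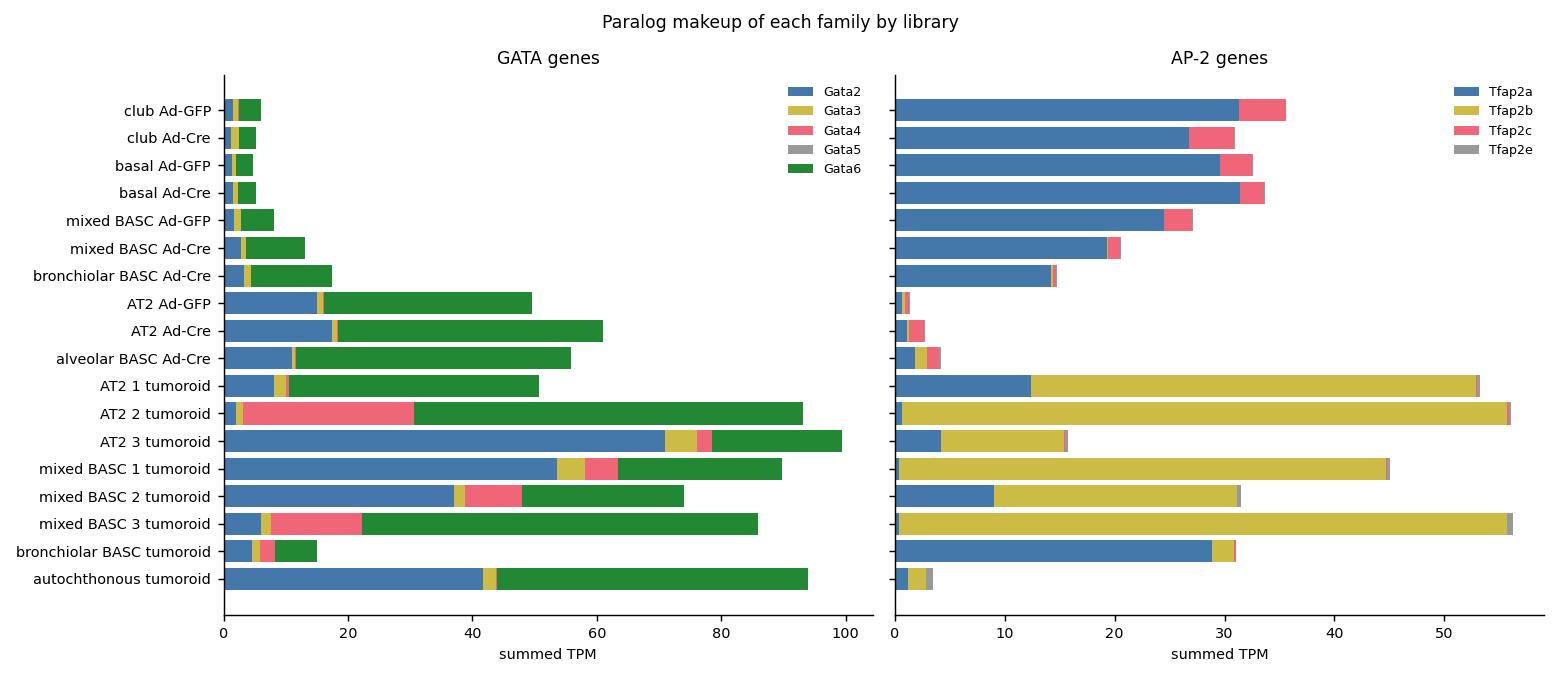
Stacked bars of the TPM of the GATA genes (left) and the AP-2 genes (right) in each library, from 0. Green Gata6 and blue Gata2 make up most of the GATA bar in alveolar organoids and in tumoroids, and the AP-2 bar is blue (Tfap2a) in tracheal and airway BASC organoids and in the bronchiolar BASC tumoroid and yellow (Tfap2b) in the other 6 transplant tumoroids.

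The first comparison asked how the members differ between alveolar and tracheal organoids before transplantation, a contrast that the choice of genes did not use. Gata6 and Gata2 were higher in the alveolar libraries and Tfap2a was lower, each without overlap. Of the 6 members that passed the count filter, 4 were called (3 higher, 1 lower) by edgeR's quasi-likelihood test at an adjusted p under 0.05, against 58.2% of all 19349 genes tested. Of the 3 higher calls, 1 is Tfap2b, which entered the test only through the libraries where it is high, so the count is a description and nothing is read from it. Gata4, Gata5 and Tfap2e did not pass the filter.

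Gata6 (chr18:11052064-11085635, plus strand) was at 2.74, 2.80, 2.94 and 3.61 TPM in the 4 tracheal libraries and at 33.4, 42.6 and 44.2 TPM in the AT2 Ad-GFP, AT2 Ad-Cre and alveolar BASC Ad-Cre libraries. Every alveolar library was above every tracheal one. In CPM (counts scaled to library totals with TMM factors) Gata6 averaged 77.1 ± 12.5 (SD, n = 3) against 5.39 ± 0.535 (n = 4), a log2 fold change of 3.88 ± 0.28 (SE) with an edgeR adjusted p of 1.52e-05. Gata2 was at 1.26 to 1.51 TPM in the tracheal and at 10.95, 15.1 and 17.4 TPM in the alveolar BASC Ad-Cre, AT2 Ad-GFP and AT2 Ad-Cre libraries. Its log2 fold change was 3.47 ± 0.22, with an edgeR adjusted p of 8.78e-06.

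Gata3 did not follow its paralogs. It was at 0.72 to 1.15 TPM in the tracheal and 0.61 to 0.97 TPM in the alveolar libraries, ranges that overlap. The log2 fold change was 0.06 ± 0.23 (SE), with an edgeR adjusted p of 0.845. Gata4 was at 0 counts in 3 of the 4 tracheal libraries and at 1 count in the other, against 4, 9 and 23 counts in the alveolar BASC Ad-Cre, AT2 Ad-GFP and AT2 Ad-Cre libraries. The pooled ratio of 36 to 1 counts was 26.8-fold after scaling for depth, with a 95% counting interval from 4.51 to 1087 that covers counting error only.

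Among AP-2 genes, Tfap2a was at 26.8, 29.6, 31.3 and 31.4 TPM in the tracheal libraries and at 0.67, 1.06 and 1.85 TPM in the AT2 Ad-GFP, AT2 Ad-Cre and alveolar BASC Ad-Cre libraries. Its CPM averaged 48.8 ± 2.75 (SD, n = 4) in tracheal and 2.10 ± 1.15 (n = 3) in alveolar organoids, a log2 fold change of -4.52 ± 0.39 (SE) with an edgeR adjusted p of 3.65e-05. Tfap2c, at 2.16 to 4.23 TPM in tracheal and 0.43 to 1.31 TPM in alveolar organoids, did not overlap between the groups either. Its log2 fold change of -1.65 ± 0.68 missed the threshold with an edgeR adjusted p of 0.0667. It passed in 3 alternatives at about the same fold, with DESeq2 (adjusted p = 0.0229) and in edgeR without the mixed BASC Ad-GFP (0.0295) or the bronchiolar BASC (0.0103) library. Tfap2b had 0 counts in 3 tracheal libraries and 1 in the other, and 33, 76 and 133 counts in the AT2 Ad-GFP, AT2 Ad-Cre and alveolar BASC Ad-Cre libraries. The pooled ratio was 180-fold with a 95% counting interval from 32.0 to 7139. Tfap2b passed the count filter only through the alveolar libraries, so its edgeR call is not used as support. At 0.22 to 1.06 TPM this was still a low level.

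The alveolar set holds 2 libraries of 1 sorted population and each tracheal pair is the 2 aliquots of 1 sort, so the p-values measure the spread between these libraries. With the libraries of a population summed to 1, Gata2 (adjusted p = 0.00614), Gata6 (0.00614) and Tfap2a (0.0103) were still called by edgeR. Fibroblast markers moved with the same split. The 10 markers summed to 2753 to 4595 TPM in alveolar and 980 to 1064 TPM in tracheal organoids. All 10 were called higher, where 58.2% of all genes tested were called. In bulk libraries fewer cells of a type and less RNA per cell cannot be told apart, and the part of the support cells in the Gata2 and Gata6 levels was not tested.

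**Figure D3:**
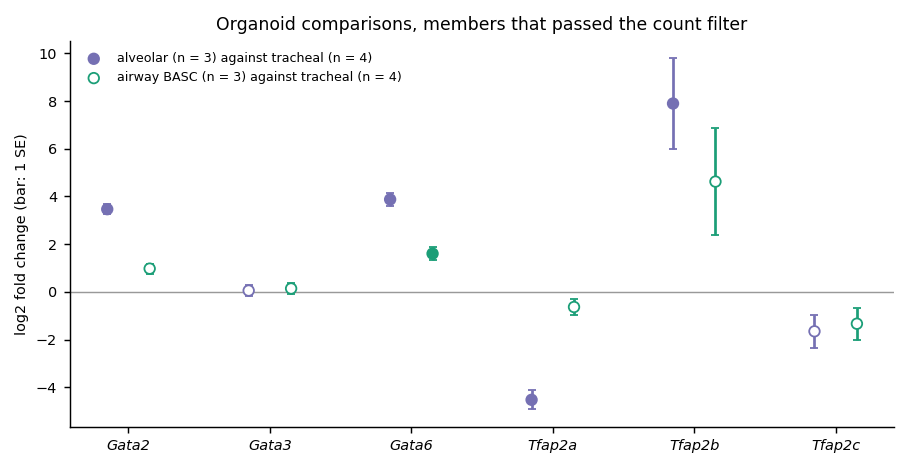
Log2 fold change (edgeR, bar of 1 SE) of the 6 members that passed the count filter, for alveolar (n = 3, purple) and airway BASC (n = 3, green) against the same tracheal libraries (n = 4), with filled points for an adjusted p under 0.05. In the alveolar comparison Gata2, Gata6 and Tfap2b (1 count in all in the tracheal libraries) are filled above 0 and Tfap2a is filled below 0, and in the airway BASC comparison 1 point, Gata6, is filled.

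Partner and target lists were set beside the members, and some of their genes are also lineage markers. In this contrast 58.2% of all 19349 genes tested were called, so the counts per list are a description. Of 8 lung genes tied to GATA6, all 8 were called between alveolar and tracheal organoids, 6 higher and 2 lower, with a median log2 fold change of 2.35 against -0.06 over all genes tested. Sftpc, the surfactant protein of AT2 cells, had a log2 fold change of 12.46 ± 1.29 and Sftpa1, another surfactant protein, of 10.22 ± 0.95. Wnt7b, a Wnt ligand of the airway epithelium, was lower by -4.08 ± 0.20, and Aqp5, a water channel, by -1.04 ± 0.15. Of 13 epithelial genes tied to AP-2, 10 were called and all 10 were lower (median log2 fold change -1.29). Krt14, a keratin of basal cells that also stands in the basal list, was at -6.04 ± 1.41 and Kit, a receptor tyrosine kinase, at -6.01 ± 0.39. Kit averaged 0.10 CPM in alveolar organoids, near 0, against 6.98 CPM in tracheal organoids.

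Of 11 tested partners and antagonists of GATA factors, 4 were called higher and 1 lower in alveolar organoids (median log2 fold change 0.14). The share called over all genes tested, 58.2%, stands beside this and the following counts. Tbx5, a T-box factor that acts with Gata4 in the heart, was at 3.19 ± 0.26 and Zfpm2, the cofactor FOG-2, at 2.20 ± 0.44, while Lmo4, a LIM-domain adaptor, was at -1.29 ± 0.21. Of 9 tested AP-2 partners and inhibitors, 2 were called higher and 2 lower (median -0.03). Cited1, a coactivator, was at -2.89 ± 0.51 and Kctd15, an inhibitor of AP-2, at -1.17 ± 0.11, with Crebbp, an acetyltransferase, at 0.23 ± 0.08. Gut endoderm genes were called in 10 of 13 tested, 5 in each direction, among them Foxa2, a forkhead factor of endoderm, at 4.75 ± 0.33, Gkn2 at 6.14 ± 1.25, Hnf4g at -5.96 ± 0.75 and Tff1 at -4.37 ± 1.01. Of 6 tested trophoblast and germ cell genes 2 were higher, led by Elf5, an ETS factor, at 5.72 ± 0.22, and 3 were lower, led by Dppa3 at -4.51 ± 1.36. Some of these genes were near 0 on their lower side. Gkn2 averaged 0.13 CPM in tracheal organoids, and Hnf4g, Tff1 and Dppa3 averaged 0.063, 0.014 and 0.016 CPM in alveolar organoids. Tff1 and Dppa3 were low in tracheal organoids too (0.42 and 0.29 CPM). The folds and calls of these 4 genes are not used as support.

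Airway BASC organoids lay between the tracheal and alveolar libraries for Gata2, Gata6 and Tfap2a. Gata6 was at 5.24, 9.47 and 13.0 TPM in the mixed BASC Ad-GFP, mixed BASC Ad-Cre and bronchiolar BASC Ad-Cre libraries, above every tracheal and below every alveolar library. It was the 1 member called by edgeR against the same tracheal libraries, with a log2 fold change of 1.61 ± 0.26 and an adjusted p of 0.0401, where 0.863% of all 19349 genes tested were called. That call was lost when any 1 of the 4 tracheal libraries was left out (adjusted p 0.153 to 0.195), although the fold change stayed between 1.54 and 1.69. The airway BASC libraries all come from Sca1-positive BASCs, which the paper describes as subcloned by morphology during passage. They are not independent cultures, and the p-values of this comparison measure the spread between these libraries.

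Gata2 was at 1.72, 2.88 and 3.27 TPM in the same 3 airway BASC libraries and did not overlap the tracheal ones, with a log2 fold change of 0.98 ± 0.21 and an edgeR adjusted p of 0.0724. Tfap2a was at 24.5, 19.3 and 14.2 TPM, all below the tracheal range (log2 fold change -0.63 ± 0.33, edgeR adjusted p 0.360). In TPM its order over the 3 libraries was the reverse of that of Gata6 and Gata2, and in CPM Gata2 was higher in mixed BASC Ad-Cre (4.62) than in bronchiolar BASC Ad-Cre organoids (4.20). Tfap2b had 0 counts in mixed BASC Ad-GFP, 1 in mixed BASC Ad-Cre and 28 in bronchiolar BASC Ad-Cre organoids, so this value rests on 1 library. Tfap2c ranged from 0.23 to 2.55 TPM and Gata3 from 0.78 to 1.10 TPM, both overlapping the tracheal range. Fibroblast markers summed to 1046, 2340 and 1947 TPM in the 3 libraries, the lowest in the library with the least Gata6 and Gata2.

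Basal and club organoids of the trachea were compared with 2 libraries each, the 2 aliquots of 1 sort. No member was called by edgeR, where 0% of the 19349 genes were called at the adjusted threshold and 448 had an unadjusted p under 0.05 (DESeq2 called 12 genes). Tfap2a was at 29.6 and 31.4 TPM in basal and 26.8 and 31.3 TPM in club organoids, a log2 fold change of 0.09 ± 0.42 (SE). Gata6 differed by -0.11 ± 0.35 and Gata2 by -0.23 ± 0.28. Gata3 at -0.61 ± 0.31 and Tfap2c at -0.64 ± 0.85 were each lower in both basal libraries. Tfap2b had 1 count in 1 club library and 0 in the other 3, so no fold is given. The standard error of Tfap2c leaves room for a sizeable difference in either direction. Among the 6 tested members 0 had an unadjusted p under 0.05, and DESeq2 called 0.

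The virus comparison asked whether activating mutant EGFR in culture moved the members, over the 4 populations given both viruses and with the population as a block. No member was called, and 0% of 17749 genes passed the adjusted threshold in edgeR, with 350 at an unadjusted p under 0.05 and 5 genes called by DESeq2, which called 0 members. In edgeR 0 members had an unadjusted p under 0.05. Among the 5 members tested, the largest mean difference was that of Gata6, at a log2 fold change of 0.24 ± 0.20 (SE) with an edgeR adjusted p of 0.994. It rested on the mixed BASC pair, which went from 5.24 TPM with Ad-GFP to 9.47 TPM with Ad-Cre, against 33.4 and 42.6 TPM in AT2, 2.80 and 2.94 TPM in basal and 3.61 and 2.74 TPM in club organoids, and it was 0.03 without the mixed BASC Ad-GFP library. Fibroblast markers in that pair summed to 1046 TPM with Ad-GFP and 2340 TPM with Ad-Cre, and their part in the difference was not tested. Gata2 was at 0.21 ± 0.19, Gata3 at 0.02 ± 0.24, Tfap2a at 0.02 ± 0.16 and Tfap2c at 0.03 ± 0.41.

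The pairs of single members did not move together. Gata2 was higher with Ad-Cre in the AT2 and mixed BASC pairs (0.15 and 0.80 in log2 CPM) and lower in the club and basal pairs (-0.04 and -0.08). Gata6 was split like Gata2, at 0.32 and 0.90 in the AT2 and mixed BASC pairs and -0.31 and 0.01 in the club and basal pairs. Gata3 went the other way, at -0.30 and -0.31 in the AT2 and mixed BASC pairs and 0.40 and 0.37 in the club and basal pairs. Tfap2c spread most, from -0.97 in mixed BASC to 1.44 in AT2. Gata4 and Tfap2b, the genes that stand out in tumoroids, stayed low with either virus: Gata4 had 23 counts with Ad-Cre and 9 with Ad-GFP in AT2 organoids and at most 2 in the other 6 libraries of these pairs, and Tfap2b had 76 and 33 counts in AT2 organoids and at most 1 elsewhere. For Tfap2b the ratio over all 4 pairs was 2.03-fold with a 95% counting interval from 1.34 to 3.15, which does not cover the spread between cultures.

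**Figure D4:**
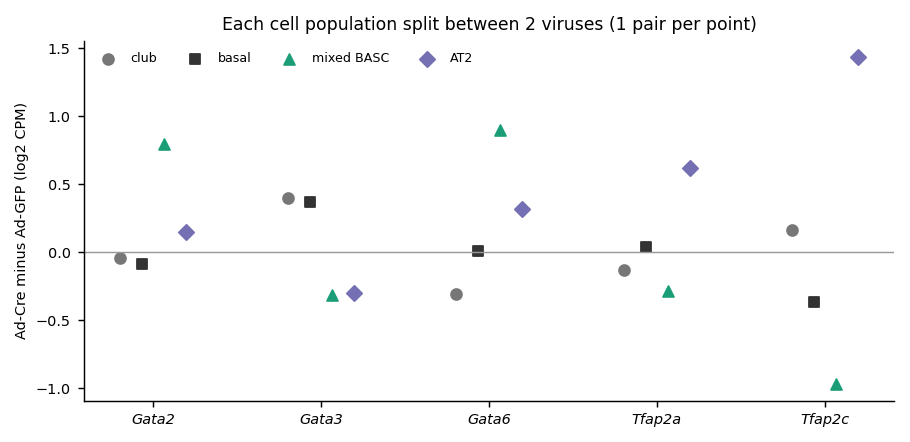
Ad-Cre minus Ad-GFP in log2 CPM (prior count 2) for the 5 members tested, with 1 point per cell population. The club and basal points lie apart from the mixed BASC and AT2 points for Gata2, Gata3 and Gata6, and the points of Tfap2c spread from -0.97 to 1.44.

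The tumoroid values are the ones that prompted the choice of genes. Gata4 was at 0.01 to 0.12 TPM in the 4 distal Ad-Cre organoid libraries and at 0.50, 27.6 and 2.44 TPM in AT2 tumoroids 1 to 3, 5.36, 9.08 and 14.7 TPM in mixed BASC tumoroids 1 to 3 and 2.52 TPM in the bronchiolar BASC tumoroid. The 7 transplant tumoroids were all above the organoids, but they differed widely among themselves. In counts, AT2 tumoroid 1 had 19 and AT2 tumoroid 2 had 1146. The fitted log2 difference between the 7 tumoroids and the 4 organoids was 7.35 ± 1.38 (SE). Gata4 was chosen for this rise, so neither the value nor its SE is support.

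Tfap2b was at 0.01, 0.20, 0.24 and 1.06 TPM in the mixed BASC, bronchiolar BASC, AT2 and alveolar BASC Ad-Cre organoids. The AT2 tumoroids held 40.5, 55.0 and 11.2 TPM and the mixed BASC tumoroids 44.4, 22.1 and 55.3 TPM, while the bronchiolar BASC tumoroid held 2.01 TPM. All 7 were above the organoids, the bronchiolar one least. The fitted log2 difference was 6.25 ± 1.29 (SE), a description in the same way. In this comparison 19.6% of the 16139 genes tested were called, and nothing is read from that share since the genes were chosen on this contrast. All tumoroids were also sequenced by another provider and platform than all organoids, so transplantation, renewed culture and platform cannot be told apart.

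The other members give a mixed picture against the same organoids. Tfap2c had 1 to 4 counts in each of the 7 transplant tumoroids (17 in all) and 22, 80, 116 and 188 counts in the bronchiolar BASC, alveolar BASC, mixed BASC and AT2 Ad-Cre organoids. Per total count it was 13.4-fold lower in the tumoroids, with a 95% counting interval from 8.26 to 23.2, and the groups did not overlap. Gata6 was at 9.47 to 44.2 TPM in these organoids and at 6.77 to 63.8 TPM in the transplant tumoroids, a fitted log2 difference of 0.45 ± 0.63. Gata2 overlapped too, at 1.40 ± 0.96, as did Gata3 at 0.99 ± 0.48 and Tfap2a at 0.01 ± 1.21.

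The partner and target lists were tested in the same contrast, where 19.6% of all 16139 genes tested were called. Of 11 tested GATA partners and antagonists, 3 were called higher in tumoroids and 1 lower, with Zfpm1, the cofactor FOG-1, at a log2 fold change of 1.16 ± 0.22, Ldb1, a LIM-domain binding adaptor, at 0.77 ± 0.14 and Lmo2, a LIM-only protein, at -1.94 ± 0.49. Among 9 AP-2 partners edgeR called 0 (3 at an unadjusted p under 0.05, 3 by DESeq2), and among 13 epithelial genes tied to AP-2 it called 0 (1 at an unadjusted p under 0.05, 0 by DESeq2). Of 8 lung genes tied to GATA6, Fzd2, a Wnt receptor, was higher at 0.89 ± 0.28 and Lgr5, a stem cell receptor, lower at -2.61 ± 0.77. Of 12 tested gut endoderm genes 2 were higher, Tff1 (6.11 ± 1.61), a trefoil peptide, and Hnf4a (3.38 ± 1.03), a nuclear receptor of liver and gut. Tff1 averaged 0.059 CPM in the organoids, near 0, and 4.16 ± 7.61 (SD) in the tumoroids, so its call is not used as support. Of 3 tested trophoblast and germ cell genes Eomes, a T-box factor, was higher at 5.04 ± 0.91. Fibroblast markers were called lower in 2 of 10 (Postn at -2.59 ± 0.63 and Lum at -2.05 ± 0.38). The 8 smooth muscle and cardiac markers summed to 35.8 to 358 TPM in the 6 AT2 and mixed BASC tumoroids and 199.5 to 242 TPM in the distal Ad-Cre organoids, with 1 of 6 tested called lower (Myh11, a smooth muscle myosin, at -2.36). The sum was lowest in AT2 tumoroid 2, which held the most Gata4.

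AT2 and mixed BASC tumoroids were then compared with 3 libraries each on 1 platform, a contrast that the choice of genes did not use. No member was called by edgeR, where 0% of 15470 genes passed the adjusted threshold, 144 had an unadjusted p under 0.05 and DESeq2 called 7. Of the members 0 had an unadjusted p under 0.05 and DESeq2 called 0. Every tested member overlapped between the origins. The log2 differences were 0.20 ± 1.31 (SE) for Gata4, 0.06 ± 0.60 for Tfap2b, 0.27 ± 0.57 for Gata6, -0.21 ± 1.25 for Gata2, -0.01 ± 0.58 for Gata3 and 0.98 ± 1.53 for Tfap2a. With standard errors above 1 on the log2 scale, differences of several fold between the origins were not detectable for Gata2, Gata4 and Tfap2a. Without AT2 tumoroid 2, the library with the most Gata4, the Gata4 difference turned to -2.81.

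The spread within each origin was wide and had a pattern of its own. Gata2 was at 8.18, 1.95 and 70.9 TPM in AT2 tumoroids 1 to 3 and at 53.7, 37.1 and 6.09 TPM in mixed BASC tumoroids 1 to 3. Gata6 was at 40.2, 62.6 and 20.9 TPM and at 26.5, 26.0 and 63.8 TPM in the same libraries. In CPM the order of the 6 tumoroids by Gata6 was exactly the reverse of their order by Gata2 (Spearman's rho -1, over 6 libraries, some of which may share a mouse), and in TPM 2 pairs broke that order (mixed BASC tumoroids 1 and 2, and mixed BASC tumoroid 3 and AT2 tumoroid 2). Over the 10 organoid libraries, which span tracheal to alveolar lineages, both genes rose together (rho 0.903). Among the alveolar organoids alone, alveolar BASC Ad-Cre held the most Gata6 (44.2 TPM) and the least Gata2 (10.95 TPM). The organoid and tumoroid sets differ in lineage, so the difference between their orders is not read further.

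Tfap2b followed Gata6 among the 6 tumoroids (rho 0.943) and Gata3 followed Gata2 (rho 0.886), while Tfap2a followed neither (rho -0.03 with Gata6 and 0.03 with Gata2). Tfap2a was at 12.4, 0.68 and 4.15 TPM in the AT2 and 0.35, 9.02 and 0.38 TPM in the mixed BASC tumoroids, so 3 libraries held 0.35 to 0.68 TPM and 3 held 4.15 to 12.4 TPM. AT2 tumoroids 2 and 3, whose titles share a number, were the lowest and the highest of the 6 for Gata2 (1.95 and 70.9 TPM), and in CPM the highest and the lowest for Gata6 (131 and 36.1) and Tfap2b (149 and 26.5).

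Fibroblast markers moved with these levels. Their summed TPM was 7642 in AT2 tumoroid 3, 3844 in mixed BASC tumoroid 2 and 1755 in mixed BASC tumoroid 1, the 3 libraries with the most Gata2, and 524, 289 and 563 in AT2 tumoroids 1 and 2 and mixed BASC tumoroid 3. Gata2 and this sum had a rho of 0.886, and Gata6 and Tfap2b had rho values of -0.829 and -0.714 with it. The AT2 marker sum was lowest in AT2 tumoroid 3 (33772 TPM) and mixed BASC tumoroid 2 (35373 TPM). Among immune markers, 2 of 8 were at 0 in all 6 libraries, and the sum was 11.98 to 37.4 TPM. The part of fibroblasts or support cells in the Gata2 levels was not tested.

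**Figure D5:**
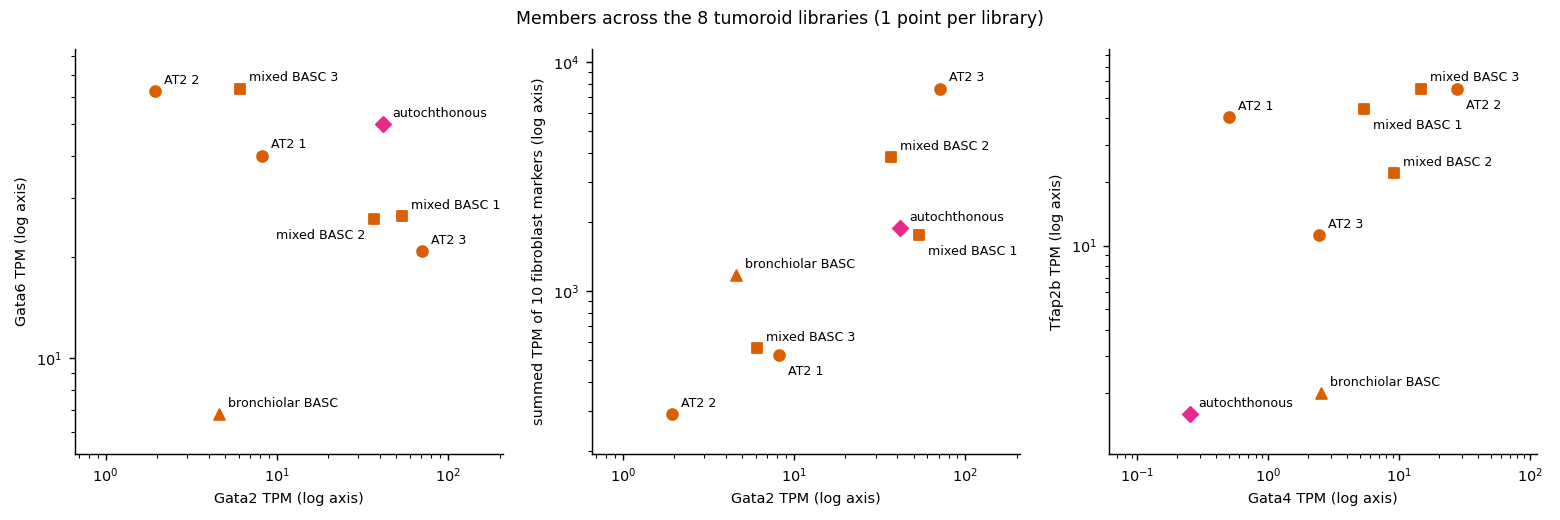
Log-log plots with 1 point per tumoroid library, of Gata6 against Gata2 TPM (left), the summed TPM of 10 fibroblast markers against Gata2 TPM (middle) and Tfap2b against Gata4 TPM (right). The 6 AT2 (circles) and mixed BASC (squares) tumoroids fall from upper left to lower right in the first panel and rise in the second, and the bronchiolar BASC (triangle) and autochthonous (diamond) tumoroids lie below the other 6 in the third.

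In the bronchiolar BASC tumoroid, 1 library with no replicate, Tfap2a was the leading AP-2 gene, as in airway BASC organoids. Tfap2a was at 28.9 TPM, 93.1% of the AP-2 level there and above the highest of the 6 AT2 and mixed BASC tumoroids (12.4 TPM). The minor paralogs lay outside the airway BASC organoid range. Tfap2b held 6.5% of AP-2 TPM against 0 to 1.4%, and Tfap2c held 0.35% (3 counts) against 1.6 to 9.4%. Gata6 at 6.77 TPM and Tfap2b at 2.01 TPM were below all 6, and Gata2 at 4.58 TPM and Gata4 at 2.52 TPM were within their range. The bronchiolar BASC Ad-Cre organoids before transplantation held 14.2 TPM of Tfap2a, 13.0 of Gata6, 3.27 of Gata2 and 0.20 of Tfap2b. Gata4 went from 1 count there to 105 counts in the tumoroid. Its basal marker sum was 1493 TPM against 1.57 to 19.2 TPM in the 6 others, and its club marker sum 16664 TPM.

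The autochthonous tumoroid, the only one that arose in the lung without transplantation and also a single library, had a GATA sum (93.9 TPM) within the 50.7 to 99.4 TPM of the 6 AT2 and mixed BASC tumoroids. It held less Tfap2b than any of them, and a Gata4 value below theirs that rests on 11 counts. Gata6 was at 49.9 TPM and Gata2 at 41.7 TPM, both within the range of the 6. Gata4 was at 0.25 TPM, or 11 counts (0.505 CPM, 95% Poisson interval 0.252 to 0.904), below all 6 and above the highest organoid library, AT2 Ad-Cre (23 counts, 0.246 CPM, interval 0.156 to 0.369). The interval of the autochthonous tumoroid overlaps both that of the AT2 Ad-Cre organoids and that of AT2 tumoroid 1 (19 counts, 0.557 to 1.44). Its place against either library is therefore not resolved by the counts. The intervals of the AT2 Ad-Cre organoids and AT2 tumoroid 1 do not overlap each other. Tfap2b was at 1.59 TPM, or 100 counts (4.60 CPM, interval 3.74 to 5.59), close to the bronchiolar BASC tumoroid (5.19 CPM, interval 4.29 to 6.22), below all 6 and above the alveolar BASC Ad-Cre organoids (3.12 CPM, interval 2.61 to 3.70). These intervals cover counting error only.

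Its AP-2 genes summed to 3.48 TPM, near the 1.39 to 4.15 TPM of alveolar organoids and under the 15.8 to 56.3 TPM of the 6 tumoroids. Tfap2b made up 45.7% of that sum, Tfap2a 35.3% and Tfap2e 17.8%. Tfap2e reached its highest level of the series here, at 0.62 TPM or 17 counts, beside 0.21 to 0.59 TPM in the 6. Eomes, called higher in transplant tumoroids, was at 8.03 TPM in the autochthonous tumoroid, inside the 6.82 to 36.6 TPM of the 6, and Hnf4a was at 0.12 TPM, inside their 0.03 to 5.32 TPM. Its AT2 marker sum of 148544 TPM was next to that of AT2 tumoroid 1, and its fibroblast sum was 1878 TPM.

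The genes whose log2 CPM was most like each member's over all 18 libraries were named among 14691 genes with a mean of at least 1 CPM. Libraries share platform and lineage, so these correlations are a description. Gata2 was most like Tbx5 (r = 0.982), AI506816 (0.975) and Clip3 (0.975), and Gata6 was most like Gstt1 (0.985), Mical1 (0.985) and Rbpjl (0.983). Tbx5 is also in the list of GATA partners. It was at 16.6 TPM in the autochthonous tumoroid and 0.51 to 26.7 TPM in the 6 AT2 and mixed BASC tumoroids.

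For Gata4 the nearest patterns were those of Gm16470 (r = 0.956), Gm10327 (0.95) and Samd1 (0.949), and for Tfap2b those of Paics (0.968), a purine synthesis enzyme, Smyd5 (0.960) and Tcf7l1 (0.959), a Wnt pathway factor. These genes are split by platform in the same way: Paics was at 110 to 179 CPM in organoids and 245 to 364 CPM in tumoroids. Tfap2a was most like Vav3 (0.925), Ifitm10 (0.919) and Gstm6 (0.914), Tfap2c like Borcs5 (0.948), Uox (0.941) and Dpp6 (0.939), and Gata3, which changed least, like Lrpprc (0.870), Tbc1d13 (0.864) and Baz1b (0.852).

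Of the genes beside Gata4 and Tfap2b on the chromosome, Blk, Tfap2d and Gm28340 were at or near 0 CPM in all sets, too low to tell whether they changed. Neil2, a DNA glycosylase gene 5066 bases from Gata4, was at 0.0 to 0.37 CPM in the 6 AT2 and mixed BASC tumoroids. It was at 0.53 to 0.66 CPM in alveolar, 0.46 to 0.77 CPM in airway BASC and 0.08 to 0.37 CPM in tracheal organoids. Neil2 was thus low throughout, but those tumoroids lay below the alveolar and airway BASC organoids without overlap, the other direction from Gata4. This difference was not tested. Blk on the other side was at 0 CPM in those tumoroids. Tfap2d, the AP-2 paralog 42568 bases before Tfap2b, and Gm28340 after it were at 0 in all these sets. For Gata6, the overlapping 1010001N08Rik was at 1.90 to 3.26 CPM in alveolar, 0.0 to 0.06 CPM in tracheal and 0.44 to 10.3 CPM in the 6 tumoroids, while Mib1 before it was at 147 to 188, 110 to 120 and 68.3 to 89.1 CPM. Gm26688, antisense to Tfap2a, was at 0.30 to 0.46 CPM in tracheal and 0.01 to 0.05 CPM in alveolar organoids, and reads of overlapping genes cannot be told apart where the counting did not use strand. Rbbp8nl near Gata5, and Psmb2 and Ncdn beside Tfap2e, were measured at 0.68 to 5.85, 66.1 to 103 and 35.4 to 51.1 CPM in the 6 tumoroids.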

How the data were processed

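RNA-seq of 10 organoid and 8 tumoroid libraries was analysed from the gene tables that the authors deposited. The authors trimmed reads with Trimmomatic 0.39, aligned them with STAR 2.6.1d and quantified genes with RSEM 1.3.2 (names and versions from the submitters' processing notes, genome GRCm38). The deposited expected counts are RSEM's estimated counts per gene, and the deposited TPM values are scaled by the authors for gene length and library total. The counting strand is not given in the sources used here.

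Gene IDs were matched to GENCODE vM21, with 46005 of 46603 found. Expected counts were rounded, filtered with filterByExpr, scaled by TMM and tested in edgeR 4.0.16 (limma 3.58.1, R 4.3.3) by the quasi-likelihood test with Benjamini-Hochberg adjustment over all genes, at an adjusted p under 0.05. The 3 lineage contrasts came from 1 fit of the 10 organoid libraries, and the virus contrast had the cell population as a block, since each sort was split between the viruses. CPM used TMM-scaled totals of all 18 libraries. The test was tried on simulated counts first. Alternatives were DESeq2 1.42.0, its size factors, other count filters, other covariates, summed libraries and leaving out each library.

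Named genes were the members, up to 2 called genes per list and direction, the 3 genes closest in pattern to each member that reached 5 CPM, and neighbouring genes. Members and lists were chosen with earlier results of these data known.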

Additional observations from a re-analysis of the deposited data

Results flagged for a closer look

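Tfap2c in the bronchiolar BASC Ad-Cre organoids, at 0.351 CPM, stood far below the other 3 of the 4 distal Ad-Cre organoid libraries. Tfap2e in the bronchiolar BASC tumoroid, at 0.0447 CPM or 1 count, stood far below the other 6 of the 7 transplant tumoroids. Of 22 groups of libraries checked in this way 2 stood out, and chance gives about 1 in 20.

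The Ad-Cre minus Ad-GFP difference of Gata2 was above 0 in both distal populations and below 0 in both tracheal ones, and the mean differences were 0.54 apart in log2 CPM. For Gata3 the directions were the opposite, and the distal mean was lower than the tracheal mean (distal minus tracheal -0.69 in log2 CPM). Gata6 was not flagged, since its basal pair was just above 0 (0.01), but it was split in the same way as Gata2. Its differences were 0.32 in AT2 and 0.90 in mixed BASC against -0.31 in club organoids. These differences between distal and tracheal populations were not tested.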

How the results depend on the processing

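In alveolar against tracheal organoids Gata2 (log2 fold change 3.37 to 3.61), Gata6 (3.77 to 4.02) and Tfap2a (-5.01 to -4.19) kept their direction with any 1 library left out. With the libraries of a population summed, 5695 genes were called, and Gata3 turned to -0.047. The airway BASC comparison was the least stable. It called 1218 genes with DESeq2, 272 with no filter, 76 with virus as a term, 0 with summed libraries, and 0 to 3516 with 1 library left out (3516 without the mixed BASC Ad-GFP library). The members called there were 2, 1, 0, 0, and 0 to 2 in the same order, and Gata6 was lost in 11 alternatives with an adjusted p from 0.0577 to 0.413. DESeq2 called 12 genes in basal against club, 5 in Ad-Cre against Ad-GFP and 7 in AT2 against mixed BASC tumoroids. Tumoroids against alveolar Ad-Cre organoids alone gave 1538 called genes, and leaving out 1 library gave 1973 to 3716.

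Differences near 0 changed sign. Without the block for cell population the virus differences of Tfap2a and Tfap2c were -0.11 and -0.089, and 0 members were called with or without it. With 1 library left out, Gata3 in alveolar against tracheal organoids ran from -0.085 to 0.20. In basal against club organoids Gata6 ran from -0.25 to 0.046 and Tfap2b, at 0 or 1 count, from -3.85 to 0. In the virus comparison Gata3 ran from -0.10 to 0.15, Tfap2a from -0.12 to 0.12 and Tfap2c from -0.39 to 0.38. In AT2 against mixed BASC tumoroids Gata2 ran from -2.38 to 0.34, Gata3 from -0.41 to 0.48, Gata4 from -2.81 to 0.77, Gata6 from -0.19 to 0.87, Tfap2a from -0.47 to 4.23 and Tfap2b from -0.44 to 0.50. The cause of these changes was not tested. The depth of the tumoroids (15327265 to 23355938 expected counts) limits Tfap2c and Tfap2e, which had 1 to 4 and 1 to 17 counts there.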
